A study of Mus musculus with 6 samples.

Results

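Transcripts of 5 haemoglobin genes were followed through single cell RNA-seq libraries of sorted mouse spleen cells, labelled as germinal center (GC) B-cells. The genes were the adult alpha globins Hba-a1 and Hba-a2, the adult beta globins Hbb-bs and Hbb-bt, and the embryonic beta-like globin Hbb-bh1. They were found by their symbols among 31053 features, and all 5 were present once. The members were selected on measured values, namely the haemoglobin UMI levels that earlier results had shown over cell types and libraries of this series, so their levels over cell types and libraries are given here as a description. For the members, only differences between genotypes were tested. The genotype fits and permutation tests further on use the same libraries, so their p-values are no independent evidence on the members. Those of the fits are printed as fitted over all genes.

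The 6 libraries came from mice that all carried Cγ1-Cre, a Cre recombinase expressed by B-cells as they enter the GC reaction. In 3 libraries Smc3 was intact, labelled as the Cre-carrying wild-type control and written Smc3 wt/wt here. The other 3 libraries are labelled as heterozygous for Smc3 (Smc3 wt/-), with an allele targeted by the same Cre in the design, which limits the deletion to cells that had expressed Cre and their progeny. Per the study's methods, the mice were immunized with sheep red blood cells and sorted cells of the spleen were sequenced, while the age of the mice and the sort gate were not given in the sources used here. The methods name as many Smc3 wt/- mice as there are Smc3 wt/- libraries, and more Smc3 wt/wt mice than the libraries used here, but no source used here ties a library to a mouse. If libraries shared a mouse, p-values measure only the spread between these libraries.

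Haemoglobin is made of alpha-like and beta-like globin chains that are encoded in separate clusters, and each chain carries a haem group. In mice, Hbb-bh1 and Hbb-y are transcribed in the primitive erythroid cells of the yolk sac, and definitive red cells of the fetus and adult use Hba-a1, Hba-a2, Hbb-bs and Hbb-bt. Erythroid transcription rests on Gata1, Klf1 and Tal1, while Bcl11a and Zbtb7a are repressors known for silencing embryonic and fetal globin genes and are also made in B-cells. The spleen holds blood, erythroid precursors and macrophages that take up aged red cells, so a splenic cell suspension can contain globin RNA from cells other than B-cells.

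In the annotation (GENCODE M21, build GRCm38), the beta-like members lay on the minus strand of chromosome 7, with Hbb-bt at chr7:103812524-103813996, Hbb-bs at chr7:103826534-103828096 and Hbb-bh1 at chr7:103841637-103843164. Hba-a1 at chr11:32283511-32284465 and Hba-a2 at chr11:32296489-32297298 lay on the plus strand of chromosome 11. The transcripts of Hba-a1 and Hba-a2 were identical at 99.8% of 538 aligned bases, and those of Hbb-bs and Hbb-bt at 92.7% of 626. Of the 50-base windows of each transcript, 67.5% of Hba-a1 and 86.9% of Hba-a2 occurred in the other, as did 65.8% of Hbb-bs and 58.3% of Hbb-bt, so the division of UMIs within each of these pairs is uncertain. Hbb-bh1 shared no 50-base window with another member and was 71.9% identical to Hbb-bs, so its UMIs could be told apart from theirs.

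The promoters of Hbb-bs and Hbb-bt are shown because these neighbouring adult beta globin genes had different patterns over cell types. The 120 bases before each RefSeq start on GRCm38.p6 are printed on the gene's own strand, the minus strand, with the CACCC motif, the CCAAT box and the TATAA box in capitals on either strand.
Hbb-bs, chr7:103827929-103828048: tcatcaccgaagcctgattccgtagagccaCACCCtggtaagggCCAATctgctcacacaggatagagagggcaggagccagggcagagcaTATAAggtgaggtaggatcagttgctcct
Hbb-bt, chr7:103813924-103814043: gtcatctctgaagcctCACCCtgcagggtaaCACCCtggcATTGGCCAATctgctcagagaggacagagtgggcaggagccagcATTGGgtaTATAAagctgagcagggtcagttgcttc
The Hbb-bs stretch held 1 CACCC, 1 CCAAT and 1 TATAA, and the Hbb-bt stretch held 2, 3 and 1, counting CCAAT also where it reads ATTGG, with no overlap between matches. GATAA was searched as well and had 0 matches in either stretch. Over the same 120 bases of 32851 RefSeq promoters, 31.7% held CACCC, 21.3% CCAAT, 11.8% TATAA and 10.5% GATAA. The longer promoters of Hbb-bs and Hbb-bt, from 250 bases before to 50 after the start, were identical at 74.7% of 293 aligned bases. GENCODE annotates transcripts of both genes that start upstream of the RefSeq start, within the printed stretch for Hbb-bt and beyond it for Hbb-bs. These matches describe letters and not bound sites.

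The libraries held 5223325 to 35354257 UMIs each, and 20809 cells were kept of 22939 barcodes after filters on genes, mitochondrial UMIs and doublets. Replicate 2 of Smc3 wt/- stood apart. Of its UMIs 51.9% were from immunoglobulin genes (2.37% to 3.90% for the remaining libraries), and it held 1737 of the plasma-lineage cells and 588 of the myeloid-like cells. The label GC B cells was checked against 10 GC B markers in the cells called GC B-like. No marker was at 0 in any library, but 9 of 10 were lowest in Smc3 wt/- replicate 2, whose summed marker level was 2296 CPM (UMIs per 1e6 UMIs of the cells summed) against 3596 to 4398 in the others. Cd79a, which naive or memory B-like cells had at 3204 CPM, supplied 1678 CPM of that sum, against 1314 to 1593 in the others. The remaining markers thus differed by more than the sum. Smc3 in GC B-like cells was at 161, 161 and 151 CPM under the label Smc3 wt/wt and at 155, 111 and 168 CPM under the label Smc3 wt/-, so the groups overlapped. A 3′ UMI can count a transcript that lacks an upstream exon, so these values do not check the labels. In total 276 barcode sequences occurred in more than 1 library.

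Most UMIs of the adult members lay in a small set of barcodes made up almost wholly of globin RNA, whereas Hbb-bh1 was nearly absent from them. A barcode was called high-haemoglobin when at least 10% of its UMIs were globin, and 207 of 22939 barcodes met this, or 0.902% (exact 95% interval 0.784 to 1.03). They held 99.2% of 240949 Hba-a1 UMIs, 99.1% of 219902 Hba-a2 UMIs, 98.3% of 494572 Hbb-bs UMIs and 91.4% of 111491 Hbb-bt UMIs. Of 4251 Hbb-bh1 UMIs they held 3, or 0.0706%. Because the threshold uses globin UMIs, these shares describe the split and are no test of it. The intervals here and below are exact binomial (Clopper-Pearson) intervals and cover counting error only.

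The median high-haemoglobin barcode held 6134 UMIs, 173 detected genes and 94.3% globin UMIs. Globin took over 90% of UMIs in 178 of them, and 190 had under 500 detected genes, so the usual filter on genes removed most of them. The cut fell in a sparse range, with 2 barcodes between 5 and 10% globin and 2 between 10 and 20%. At least 1 UMI of Alas2, the erythroid first enzyme of haem synthesis, was found in 200 of 207, and of Slc4a1, the band 3 anion exchanger of the red cell membrane, in 71. The B-cell receptor gene Cd79a was detected in 27, the leukocyte surface gene Ptprc in 16, the myeloid gene Lyz2 in 6 and the T cell gene Cd3e in 0. Of the 207, 17 passed the filters and were clustered with other cells, 11 of them as GC B-like. All 17 had a UMI of Alas2 or Slc4a1, and 12 had one of Cd79a. No barcode was high-haemoglobin in 2 libraries.

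**Figure D1:**
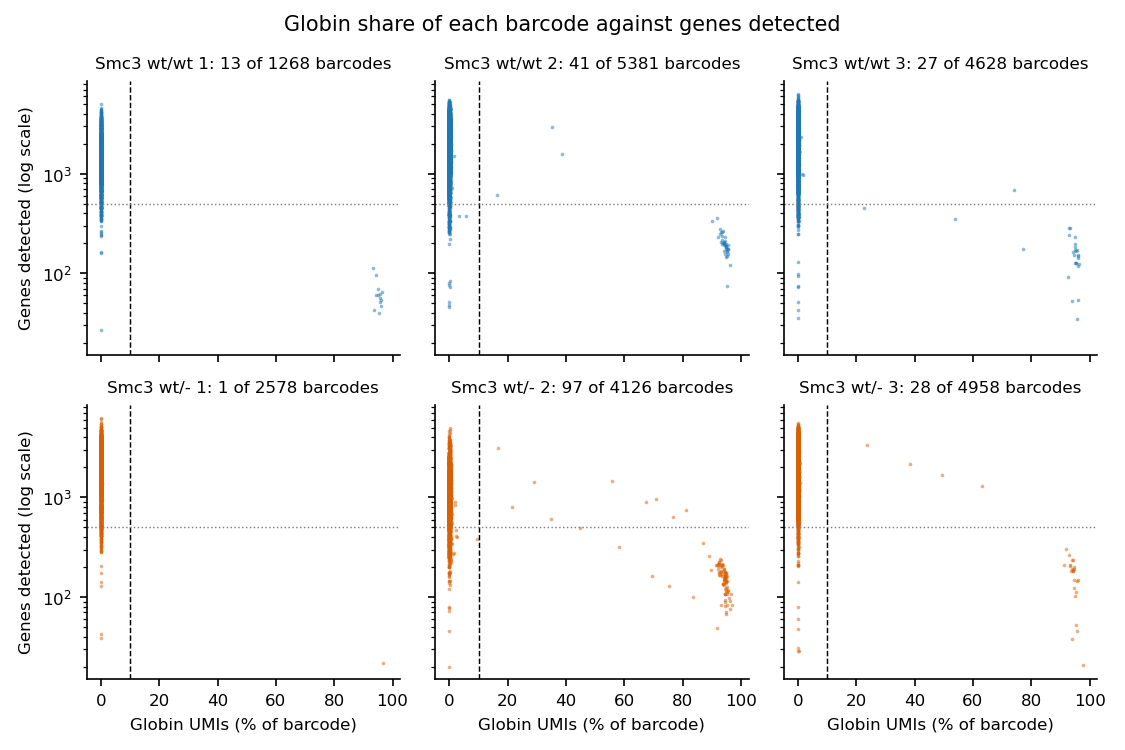
Detected genes (vertical axis, log scale) against percent of a barcode's UMIs from globin genes (horizontal axis), 1 panel per library and 1 point per barcode. The dashed line marks 10% globin and the dotted line 500 genes. Points near 100% globin sit mostly below the dotted line, and Smc3 wt/- replicate 1 has 1 barcode right of the dashed line.

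Per library, the share of high-haemoglobin barcodes was 1.03%, 0.762% and 0.583% in Smc3 wt/wt replicates 1 to 3, and 0.0388%, 2.35% and 0.565% in Smc3 wt/-. The Smc3 wt/- libraries held both the lowest and the highest share, and the groups overlapped. The means were 0.790% ± 0.222 (SD, n = 3) and 0.985% ± 1.21 (SD, n = 3), and the difference of 0.195 percentage points was within the spread (exact two-sided permutation test, p = 1, where the smallest possible p is 0.1). With that smallest p no difference could have been called, so the test does not decide whether the genotypes differ in this share. Without Smc3 wt/- replicate 2 the difference turned to -0.488 percentage points.

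Within these barcodes Hbb-bs was the more abundant adult beta globin in every library, while the proportions of the members varied between libraries by more than counting error. Hbb-bt made up 10.8%, 16.6% and 16.6% of Hbb-bs plus Hbb-bt UMIs in Smc3 wt/wt and 7.88%, 18.6% and 15.9% in Smc3 wt/-, where the first value rests on 1 barcode of 720 UMIs. The intervals of Smc3 wt/wt replicate 1 (10.4 to 11.3) and Smc3 wt/- replicate 2 (18.5 to 18.8) lay apart. Pooled, the share was 17.3% (17.2 to 17.4). Hba-a2 supplied 37.2% to 48.1% of alpha globin UMIs over libraries and 47.7% pooled, and the alpha members together 48.5% of alpha plus Hbb-bs UMIs. A 3′ UMI counts 1 end of 1 transcript, so these ratios need no correction for transcript length.

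Other erythroid genes accompanied the globins in the high-haemoglobin barcodes. Non-globin UMIs of these barcodes were summed per library and compared with those of all other barcodes in the 4 libraries with at least 20 of them, with library as a block (quasi-likelihood test of edgeR, called at a Benjamini-Hochberg adjusted p under 0.05). Of 11297 genes tested, 289 were higher (2.56%) and 161 lower (1.43%). The median log2 difference over all tested genes was -1.03, and DESeq2 called 484 higher and 9 lower, so the number of lower calls changed with the tool and scaling. With DESeq2 size factors in edgeR the numbers were 349 and 43. In simulated data the lower calls at the main scaling were not held to a limit on false calls, so they are less certain. Without Smc3 wt/- replicate 2 the total of 450 became 173 (166 higher and 7 lower), and without Smc3 wt/wt replicate 2 it became 228 (210 higher and 18 lower).

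Alas2 reached 18358, 38060, 14035 and 9694 CPM of non-globin UMIs in the high-haemoglobin sums of Smc3 wt/wt replicates 2 and 3 and Smc3 wt/- replicates 2 and 3, against at most 0.45 CPM in the other barcodes. Slc4a1 was at 1063, 1888, 875 and 177 CPM against at most 0.15. For both genes the lowest high-haemoglobin sum was above every sum of other barcodes. Other genes that rose were Rec114, Epb42, Apol11b, Trim10, Tspo2 and Rsad2. The named genes with the steepest fitted fall (Derl3, Chil3, H1f0, Magt1 and Ly6k) had 0 UMIs in the high-haemoglobin sums, where 3 UMIs over the 4 sums correspond to 19.9 CPM, and no fold is given for them.

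Among the haem synthesis enzymes, 5 of 9 tested genes were higher and 0 lower, with a median log2 difference of 2.71. Fech, which inserts iron into the porphyrin ring, was at 4648 CPM of non-globin UMIs over all high-haemoglobin barcodes, against 13.6 CPM of all UMIs in GC B-like cells. Of 14 red cell membrane and skeleton genes, 8 passed the low-count filter and all 8 were higher, with a median of 8.98. Of 16 other erythroid genes present, 15 were tested and 12 were higher, with a median of 6.19, including Bpgm and Car2, the red cell enzymes bisphosphoglycerate mutase and carbonic anhydrase 2. The globin regulators had 4 of 10 tested genes higher (Klf1, Gata1, Lmo2 and Nfe2) and 0 lower, with a median of 0.44. Genes that passed the filter only through the high-haemoglobin sums had to differ, so these counts describe the lists beside the 289 and 161 of all genes.

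Haemoglobin and iron recycling genes of macrophages had 4 of 7 tested members higher, on 70 UMIs in all. Of the plasma lineage markers 8 of 12 were lower, more than the 7 lower genes left in all without Smc3 wt/- replicate 2, the library with most plasma-lineage cells, so this count does not hold without it. Of the 12 T markers 1 was lower. The 5 platelet markers had 4 UMIs in the high-haemoglobin barcodes and none was tested. The part of cells caught together with a red cell in these values was not tested.

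**Figure D2:**
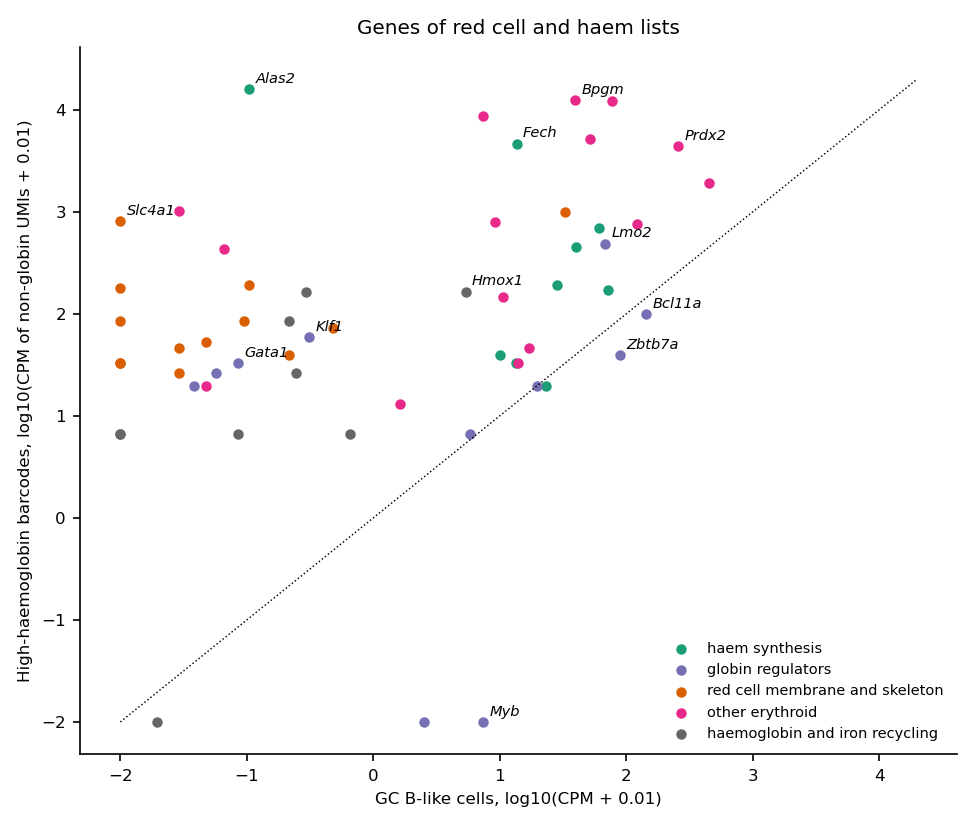
Levels of genes of the lists in high-haemoglobin barcodes (vertical axis) against GC B-like cells (horizontal axis), each as log10(CPM + 0.01), with 1 point per gene and colours for the lists. Alas2 lies near the top left, and Bcl11a and Zbtb7a, at 144 and 88.7 CPM in GC B-like cells, lie to the right.

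Outside the high-haemoglobin barcodes, Hbb-bh1 was concentrated in GC B-like cells. Of its 4248 UMIs there, 3994 were in the 15667 GC B-like cells, while the remaining kept classes held 9 (naive or memory B-like), 3 (T cell-like) and 2 (plasma-lineage), with 0 in myeloid-like and dendritic-like cells. GC B-like cells of Smc3 wt/wt had a level of 41.7, 51.4 and 39.8 CPM, and those of Smc3 wt/- had 34.7, 26.8 and 22.9 CPM. Every library was therefore above 20 CPM. Pooled, this was 37.7 CPM in GC B-like cells against 2.49 in T cell-like, 1.60 in naive or memory B-like and 0.0671 in plasma-lineage cells. In the order of levels the T cell-like and naive or memory B-like values could not be told apart, since their counting intervals (0.513 to 7.27 and 0.731 to 3.04 CPM) overlapped. A UMI was found in 0 of 684 myeloid-like cells, which at a floor of 3 counts allows a share of cells with a UMI of up to 0.439% and does not limit how many cells expressed the gene.

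At least 1 Hbb-bh1 UMI was found in 16.2% of GC B-like cells (15.6 to 16.8), against 0.564% of 532 T cell-like cells (0.116 to 1.64), which should lack the gene. Median depth per library was 3916 to 6142 UMIs in GC B-like and 1207 to 1948 in T cell-like cells. Thinned to 2000 UMIs a cell, which 15040 of the 15667 GC B-like cells reached, the share was 7.26%, and over libraries it was 4.41% to 9.71%. Plasma-lineage cells were deeper than GC B-like cells, with medians of 11080 to 19023 UMIs, and had a share of 0.0971% unthinned. Thinned to the same 2000 UMIs, the share was 0% over 177 T cell-like cells and 0.0108% over 2044 plasma-lineage cells. The Hbb-bh1 share in GC B-like cells thus lay above that of T cell-like cells and above that of the deeper plasma-lineage cells.

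Most positive cells held few molecules. Among GC B-like cells, 13127 had 0 Hbb-bh1 UMIs, 1737 had 1, 487 had 2, 245 had 3 or 4 and 71 had at least 5, with a maximum of 16. The 157 cells with the most UMIs, 1% of the class, held 20.2% of all Hbb-bh1 UMIs in it. The related embryonic gene Hbb-y had 6 UMIs in the whole series and Hba-x, the embryonic alpha-like gene, had 0. Hbb-bh2, which lies between Hbb-bs and Hbb-bh1, had 8 UMIs, all of them in GC B-like cells. The alpha-like theta genes Hbq1a and Hbq1b had 37 and 36 UMIs, of which 35 and 36 were in high-haemoglobin barcodes.

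**Figure D3:**
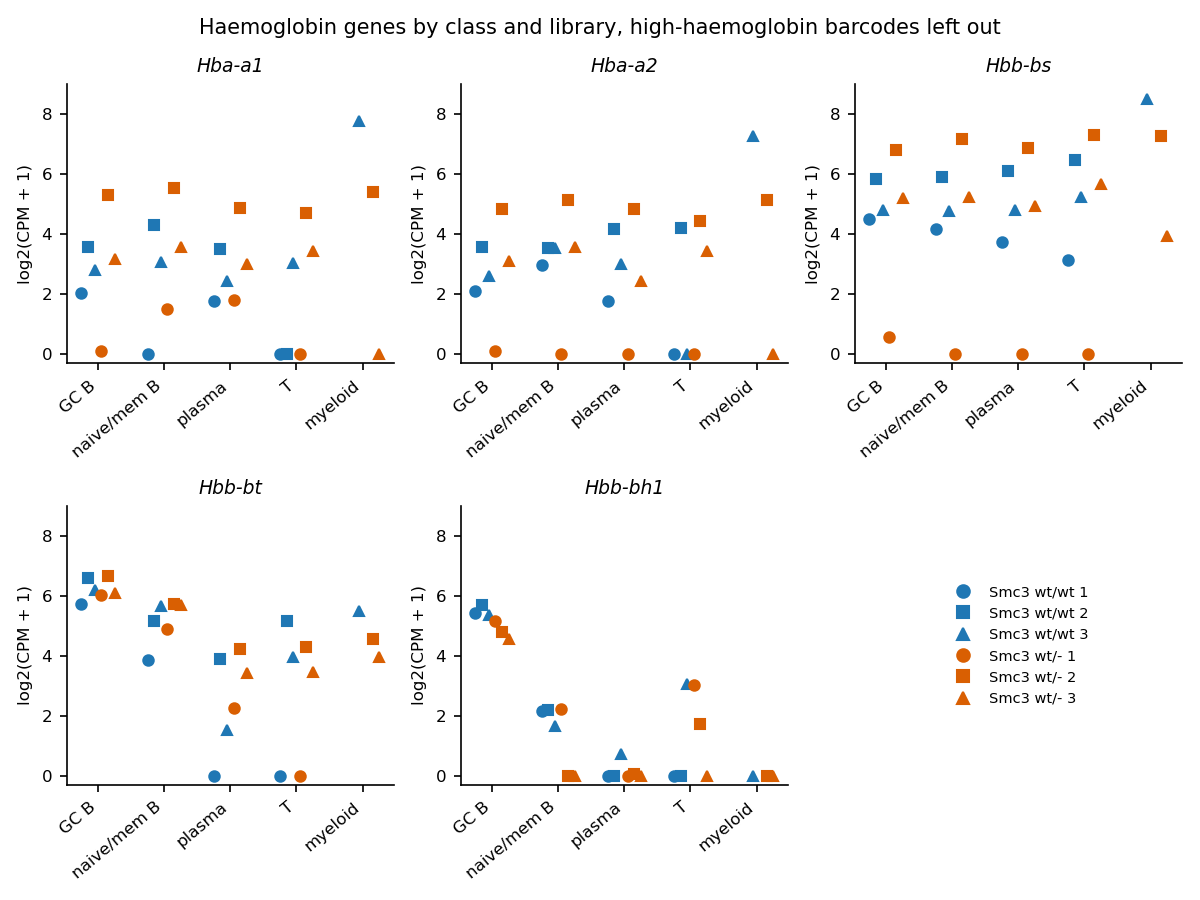
Level of each member as log2(CPM + 1) (vertical axis) in each cell class (horizontal axis), with 1 point per library of at least 20 cells in the class, coloured by genotype, and high-haemoglobin barcodes left out. Hbb-bh1 points are high only in GC B-like cells among the classes drawn, at 22.9 to 51.4 CPM, while Hbb-bs points spread widely over libraries in every class with several points.

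Hbb-bs outside the high-haemoglobin barcodes was spread over all classes, and in GC B-like, T cell-like and plasma-lineage cells it moved with the library instead. In GC B-like cells it was at 21.6, 56.3 and 27.2 CPM in Smc3 wt/wt and at 0.486, 111 and 35.8 CPM in Smc3 wt/-. In T cell-like cells it was at 7.87, 87.9 and 36.8 CPM and at 0, 157 and 50.1 CPM in the same order. The plasma-lineage class had 12.3, 68.4 and 27.4 CPM, then 0, 118 and 30.1 CPM. In each of these classes Smc3 wt/- replicate 2 was highest and Smc3 wt/- replicate 1 lowest. Globin UMIs of the high-haemoglobin barcodes made up 0.541%, 0.715% and 0.393% of all UMIs in Smc3 wt/wt replicates 1 to 3, against 0.00479%, 1.47% and 0.412% in Smc3 wt/-, with the same libraries at both ends. T cells should lack globin, and in 4 of 6 libraries Hbb-bs was lower in GC B-like than in T cell-like cells. The exceptions were Smc3 wt/wt replicate 1 and Smc3 wt/- replicate 1, where T cell-like cells had 1 and 0 Hbb-bs UMIs. Among myeloid-like sums of at least 20 cells, Hbb-bs was at 364 CPM in Smc3 wt/wt replicate 3, and at 155 and 14.6 CPM in Smc3 wt/- replicates 2 and 3. That class therefore did not follow the same order of libraries. The part of free RNA in these values was not tested. Thinned to 2000 UMIs a cell, Hbb-bs was found in 7.05% of GC B-like cells (19.3% unthinned) and 14.4% of T cell-like cells. Without Smc3 wt/- replicate 2, which supplied 60 of the 177 T cell-like cells of that depth, the shares were 6.71% and 9.64%.

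Hba-a1 and Hba-a2 followed Hbb-bs. Hba-a1 in GC B-like cells was at 3.09, 10.8 and 6.10 CPM in Smc3 wt/wt and at 0.0810, 38.7 and 8.15 CPM in Smc3 wt/-, and Hba-a2 ranged from 0.0810 to 27.9 CPM with the same lowest and highest library. Per 1000 Hbb-bs UMIs there were 219 Hba-a1 UMIs in GC B-like, 240 in plasma-lineage and 141 in T cell-like cells, against 491 in the high-haemoglobin barcodes. The alpha share of alpha plus Hbb-bs UMIs was 29.7% in GC B-like, 32.3% in plasma-lineage and 22.0% in T cell-like cells, lower than the 48.5% of the high-haemoglobin barcodes. In myeloid-like cells it was 41.2%, and 58.2% without Smc3 wt/- replicate 2. Alas2 had 10 UMIs in GC B-like cells, or 2.61 per 1000 Hbb-bs UMIs, against 4.96 in the high-haemoglobin barcodes.

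Hbb-bt was found in both settings, in the high-haemoglobin barcodes and in GC B-like cells of every library. GC B-like cells had it at 52.2, 96.6 and 72.5 CPM in Smc3 wt/wt and at 64.9, 101 and 67.5 CPM in Smc3 wt/-, a narrower range over libraries than that of Hbb-bs. Thinned to 2000 UMIs, it was found in 13.6% of GC B-like cells (28.1% unthinned) against 1.80% of T cell-like cells. It made up 70.7%, 63.2% and 72.7% of Hbb-bs plus Hbb-bt UMIs in GC B-like cells of Smc3 wt/wt and 99.3%, 47.7% and 65.4% in Smc3 wt/-. All 6 values were above the 7.88% to 18.6% of the high-haemoglobin barcodes. Pooled, the Hbb-bt share was 68.0% (67.2 to 68.8) in GC B-like cells, 39.6% (35.8 to 43.6) in naive or memory B-like, 15.4% (9.38 to 23.2) in T cell-like, 16.2% in myeloid-like and 13.4% (12.3 to 14.6) in plasma-lineage cells. The pooled naive or memory value leaned on Smc3 wt/- replicate 2, which held the most UMIs and a share of 26.5%. The other libraries of that class had 44.4%, 36.8% and 64.8% for Smc3 wt/wt, with 100% and 58.3% for Smc3 wt/- replicates 1 and 3, so that the share came near the GC B-like value of the same library in some of them. The same library weighed on the other pooled values. Without it, a check added after the data had been seen, the share was 69.0% in GC B-like, 54.0% (48.2 to 59.8) in naive or memory B-like, 24.4% (12.4 to 40.3) in T cell-like, 25.7% (17.8 to 34.9) in myeloid-like and 17.0% (12.0 to 23.1) in plasma-lineage cells, and 16.1% in the high-haemoglobin barcodes. The T cell-like, myeloid-like and plasma-lineage values are therefore not ranked among themselves.

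Hbb-bt was most nearly alone among the adult members in Smc3 wt/- replicate 1, the library with 1 high-haemoglobin barcode. Its GC B-like cells had 6 Hbb-bs UMIs, 1 UMI each of Hba-a1 and Hba-a2, 801 Hbb-bt UMIs and 429 Hbb-bh1 UMIs. At the Hbb-bt to Hbb-bs ratio of the same library's high-haemoglobin barcode, 6 Hbb-bs UMIs correspond to 0.513 Hbb-bt UMIs. The GC B-like cells of Smc3 wt/wt held 203, 2794 and 2199 Hbb-bt UMIs, and those of Smc3 wt/- replicates 2 and 3 held 265 and 1886. The numbers at each library's high-haemoglobin ratio were 10.2, 325, 165, 66.6 and 189, so that the observed counts were 3.98 to 19.9 times as large. In plasma-lineage cells of the 4 libraries with at least 10 Hbb-bs plus Hbb-bt UMIs and such a ratio, the observed counts were 0.350 to 1.71 times as large. In T cell-like cells, again with at least 10 such UMIs, they were 2 times as large in Smc3 wt/wt replicate 2 and 0.514 and 1.06 times in Smc3 wt/- replicates 2 and 3. In naive or memory B-like cells they were 2.92 and 9.23 times as large for Smc3 wt/wt replicates 2 and 3, with 1.57 and 7.41 times for the same numbers of Smc3 wt/-, and Smc3 wt/- replicate 1 had 16 Hbb-bt UMIs beside 0 of Hbb-bs. The lowest naive or memory value lay below the highest plasma-lineage and T cell-like values. Since Hbb-bs and Hbb-bt share long stretches of transcript, how aligned reads were divided between them was not tested.

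**Figure D4:**
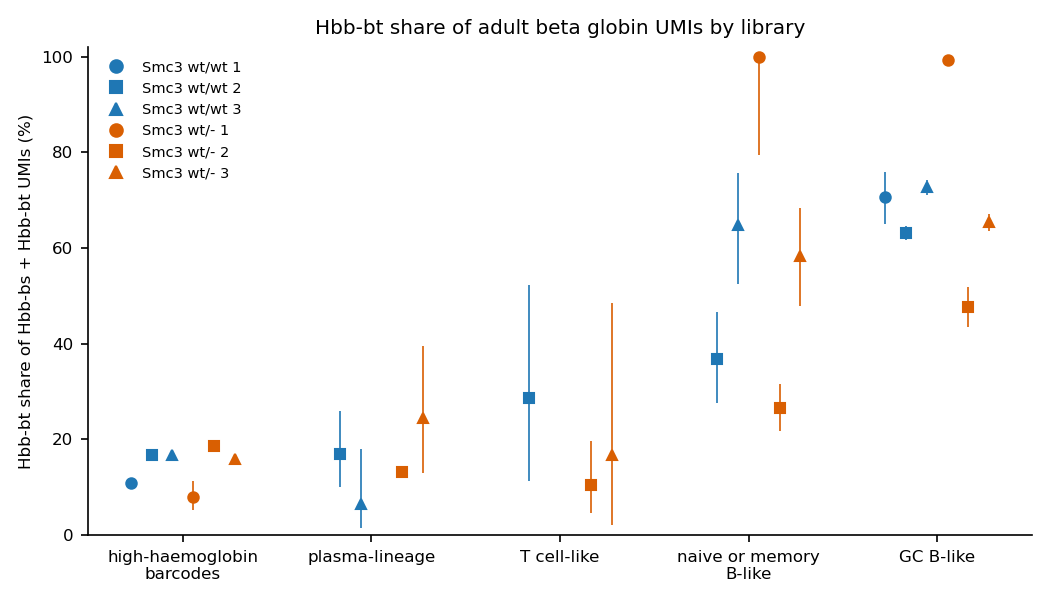
Hbb-bt as percent of Hbb-bs plus Hbb-bt UMIs (vertical axis) by class (horizontal axis), with 1 point per library of at least 10 such UMIs and bars for exact 95% binomial intervals. High-haemoglobin barcodes lie at or below 18.6%, and GC B-like cells lie between 47.7% and 99.3%.

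Hbb-bt and Hbb-bh1 were found in the same GC B-like cells more often than in depth-matched cells without Hbb-bh1. Hbb-bt was detected in 20.2%, 41.7% and 38.3% of Hbb-bh1-positive cells in Smc3 wt/wt, against 17.8%, 31.5% and 28.7% of depth-matched Hbb-bh1-negative cells. In Smc3 wt/- the values were 36.8%, 66.7% and 39.3% against 22.8%, 25.2% and 27.7%, where the 66.7% rests on 33 positive cells. The share was higher in 6 of 6 libraries, as a description without a test. The smallest difference, in Smc3 wt/wt replicate 1, rests on 119 positive cells. Cells were matched by depth and not by cluster, and the part of cluster in these shares was not tested. For Hbb-bs the shares were 11.8%, 32.2% and 19.9% against 9.95%, 30.5% and 19.3% in Smc3 wt/wt, then 0%, 36.4% and 25.6% against 0.410%, 43.8% and 22.1% for Smc3 wt/-, higher in 4 of 6 libraries.

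Hbb-bh1 and Hbb-bt varied within GC B-like cells by cluster. In the cluster led by the S phase genes Ung, E2f1 and Cdc6, Hbb-bh1 was at 60.5 ± 24.3 CPM (SD, n = 6 libraries), ranging from 36.3 to 96.6. In the cluster led by Hspd1, Shisa8 and Shmt1, whose median cell had 14186 UMIs, it was at 15.2 ± 3.80 CPM, ranging from 8.80 to 20.1. By CPM the former was the highest and the latter the lowest cluster in 5 of 6 libraries, the exception being Smc3 wt/- replicate 2. Between them lay the clusters led by Pxdc1 and Apoe (48.8 ± 20.9), Mxd3 and Hist1h2ap (47.4 ± 13.1), Ccnb2 and Cdc20 (44.7 ± 13.0), Ube2c and Cenpf (31.4 ± 10.3), and the light zone genes Nfkbid and Cd83 (24.5 ± 15.9). The SD ranges of neighbours in this order overlapped. Per cell, the mean was 0.323 UMIs in the cluster led by Ung, 0.226 in that led by Hspd1 and 0.144 in that led by Pxdc1. The cluster lowest by CPM was thus not the lowest per cell.

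Hbb-bt had its lowest mean CPM in the same cluster led by Hspd1, at 31.4 ± 8.96, and its highest in the clusters led by Pxdc1 (116 ± 30.9) and Ung (111 ± 41.0). Per cell the order differed, with means of 0.464 UMIs in the cluster led by Hspd1, 0.348 in that led by Pxdc1 and 0.617 in that led by Ung. Depth moved with these levels. GC B-like cells were divided by depth into 5 bins of equal size per library, and values were averaged over libraries. From the shallowest to the deepest bin Hbb-bh1 was at 44.5, 46.0, 56.1, 42.9 and 22.1 CPM, highest in the middle bin and lowest in the deepest, which had the most UMIs per cell, at 0.312. Hbb-bt was at 128, 125, 109, 83.4 and 41.0 CPM in the same order, with 0.286 UMIs per cell in the shallowest bin and 0.572 in the deepest. Hbb-bs went from 51.7 to 38.2 CPM. The part of total RNA content in the cluster differences was not tested.

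**Figure D5:**
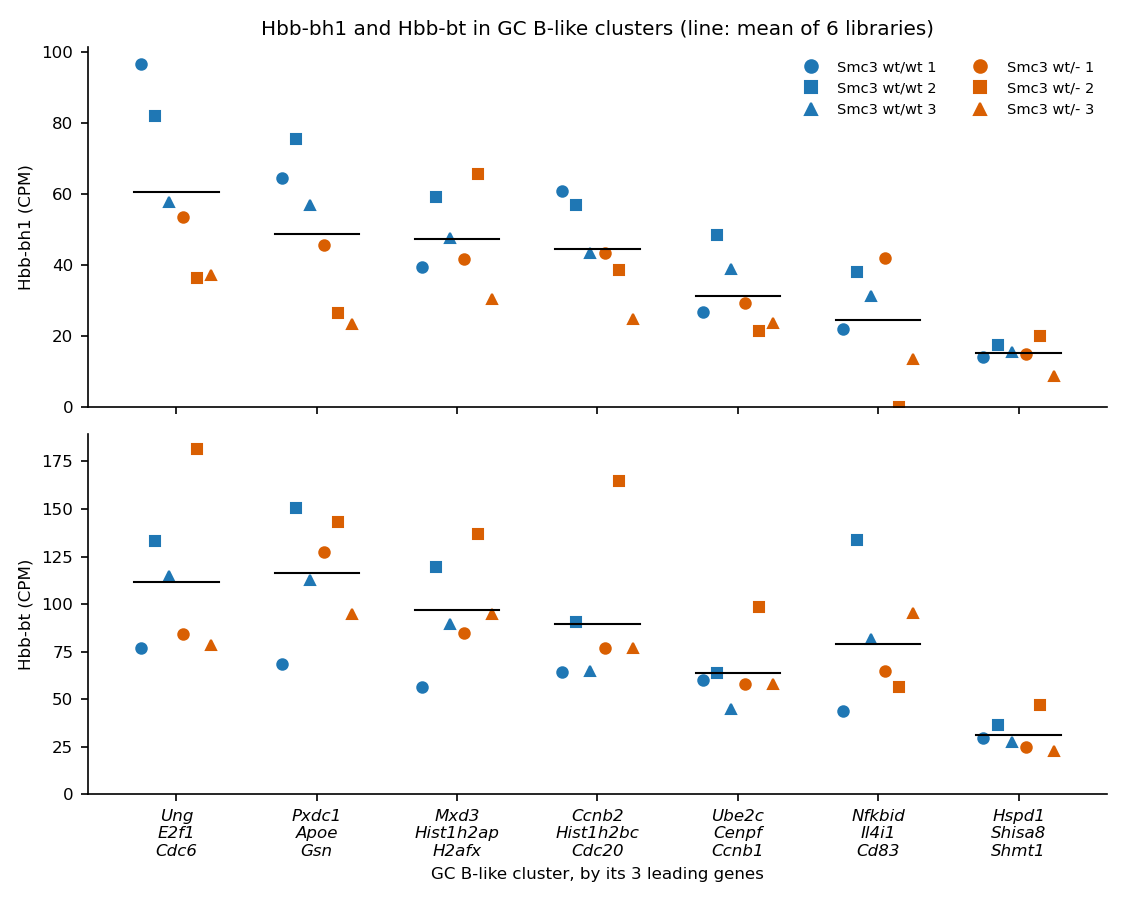
Hbb-bh1 and Hbb-bt levels in CPM (vertical axes) in 7 GC B-like clusters named by their leading genes (horizontal axis), with 1 point per library coloured by genotype and a line at the mean of 6 libraries. The cluster led by Hspd1 is lowest on average by CPM for both genes, at 15.2 and 31.4 CPM, but not by UMIs per cell, which are not drawn.

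Genes with a pattern like that of a member were ranked by Pearson r of log2(CPM + 1) over 28 sums of a library and a class of kept cells, among 11088 genes. These sums share libraries and cell types, and r is given as a description. With Hbb-bs the high non-globin values included those of Alas2 (0.77), Wdr89 (0.63) and Gm10036 (0.62). With Hbb-bh1 the highest were those of 1500009C09Rik (0.87), Chrna9 (0.84), Pdzd3 (0.84), Gm47777 (0.82) and Gcnt3 (0.81). Among the members, Hbb-bs had r of 0.94 with Hba-a2, 0.88 with Hba-a1 and 0.72 with Hbb-bt, and -0.02 with Hbb-bh1. Hbb-bt had r of 0.36 with Hbb-bh1. With high-haemoglobin barcodes left out, an alternative added after the data had been seen, Hbb-bt had r of 0.42 with Hbb-bs and 0.45 with Hbb-bh1. The 5 genes most like Hbb-bs were then Gm42418 (0.71), Gabbr1 (0.63), Rptor (0.61), Gm10036 (0.59) and Cep170 (0.59), and Alas2 was no longer among them.

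Of the globin regulators, GC B-like cells had Bcl11a at 144 CPM, Zbtb7a at 88.7, and the adaptor genes Lmo2 and Ldb1 at 67.9 and 19.7. The erythroid factors Klf1, Gata1 and Tal1 were at 0.302, 0.0754 and 0.0283 CPM, and Slc4a1 had 0 UMIs. These are levels over the whole class, and the cells with an Hbb-bt or Hbb-bh1 UMI were not taken apart for them. The olfactory receptor genes beside the beta globin cluster (Olfr64 to Olfr69) had 0 UMIs in these cells. Nprl3, which holds enhancers of the alpha globin genes in its introns, was at 7.67 CPM and Snrnp25 at 155.

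A small myeloid-like cluster led by C1qa, Vcam1, Slc40a1, Hmox1 and Spic, genes of iron-recycling macrophages, also held globin. Of its 61 cells, 4 (6.56%) had at least 1% globin UMIs, against 19 of 20748 other kept cells (0.0916%), and 2 of its cells were high-haemoglobin. The 4 cells came from 2 libraries, with 2 in Smc3 wt/wt replicate 3 and, both of them high-haemoglobin, 2 in Smc3 wt/- replicate 2. Without Smc3 wt/wt replicate 3, a check added after the data had been seen, the numbers were 2 of 49 cells (4.08%) and 18 of 16479 (0.109%), and without Smc3 wt/- replicate 2 they were 2 of 40 (5%) and 9 of 17211 (0.0523%). With the high-haemoglobin cells left out, 25 of 59 cells had a globin UMI and Hbb-bs was at 497 CPM, and at 253 CPM without the 2 cells with the most adult globin. Hbb-bh1 had 0 UMIs in this cluster.

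Whether the members differed between Smc3 genotypes was compared on UMIs summed per library and class (quasi-likelihood test of edgeR, with p adjusted by Benjamini-Hochberg over all genes tested). No gene, member or not, passed an adjusted p of 0.05 in any class. In GC B-like cells 0% of 11032 genes were called, with 187 at p under 0.05 before adjustment. DESeq2 called 0 there as well, with 405 before adjustment. Over all kept cells 0% of 11840 genes were called by edgeR and 0 by DESeq2, with 184 and 501 at p under 0.05 before adjustment.

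Hbb-bh1 in GC B-like cells, on TMM-scaled CPM, was at 38.3, 52.1 and 40.4 in Smc3 wt/wt and at 32.0, 30.4 and 23.1 in Smc3 wt/-. All Smc3 wt/- libraries were below all Smc3 wt/wt libraries, as were those of 4.52% of all genes tested. The log2 fold change of Smc3 wt/- over wt/wt was -0.63 (SE 0.18, 95% interval -1.06 to -0.20), with an edgeR p of 0.00994 and an adjusted p of 0.9996, and did not pass the correction. It was -0.63 with high-haemoglobin barcodes left out, and -0.68 without Smc3 wt/- replicate 2, the library with the lowest GC B markers. Leaving out Smc3 wt/wt replicate 2 gave -0.47, and clustering without integration gave -0.30 (SE 0.35). Over all kept cells it was -1.06 (SE 0.52, edgeR adjusted p = 0.927), with 5.39 in Smc3 wt/- replicate 2 and 18.4 to 41.7 in the other libraries, and all Smc3 wt/- libraries below all Smc3 wt/wt libraries, as for 4.10% of genes. That library had 470 GC B-like cells, and the part of cell makeup in its value over all cells was not tested. In GC B-like cells without high-haemoglobin barcodes, the share of cells with an Hbb-bh1 UMI was 15.2%, 20.3% and 19.3% in Smc3 wt/wt against 13.9%, 7.10% and 11.1% in Smc3 wt/-, and thinned to 2000 UMIs it was 8.71%, 9.71% and 7.71% against 6.59%, 4.41% and 4.56%. UMIs per positive cell were 1.36, 1.65 and 1.62 against 1.51, 2.12 and 1.41. These values describe the same counts as the fit and were not tested separately.

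The adult members had large fitted differences in GC B-like cells that rested on the 11 high-haemoglobin barcodes clustered with them. Hbb-bs was at 19.8, 187 and 27.6 TMM-scaled CPM in Smc3 wt/wt and at 0.448, 4753 and 356 in Smc3 wt/-, where Smc3 wt/- held both the lowest and the highest library. The log2 fold change was 4.43 (SE 2.18), and 0.50 with high-haemoglobin barcodes left out. Hba-a1 went from 4.78 to 0.97, Hba-a2 from 4.79 to 0.63 and Hbb-bt from 2.65 to 0.11 (SE 0.32, 95% interval -0.63 to 0.85). The edgeR adjusted p was 0.9996 for each before that step. In naive or memory B-like cells 4 members passed the low-count filter and in plasma-lineage cells 2, with 0% of genes called in both, and in T cell-like cells no member passed it. Myeloid-like cells were not tested, since some libraries had under 20.

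As a share of the UMIs of Hbb-bs, Hbb-bt and Hbb-bh1 in kept cells, Hbb-bh1 made up 35.1%, 13.6% and 18.1% for Smc3 wt/wt, against 34.3%, 0.286% and 4.50% for Smc3 wt/-. The groups overlapped, and the difference of -9.20 percentage points (13.0% ± 18.5 against 22.2% ± 11.3, SD, n = 3 each) was within the spread (exact two-sided permutation test, p = 0.5, where the smallest possible p is 0.1). Over all deposited barcodes the difference turned to 8.18 percentage points, and with 1 library left out it ranged from -19.8 to -2.79, the smallest differences being those without Smc3 wt/wt replicate 1 and without Smc3 wt/- replicate 2 (-2.82). In GC B-like cells without high-haemoglobin barcodes, an alternative added after the data had been seen, the shares were 36.1%, 25.2% and 28.5% against 34.7%, 11.2% and 18.1%, a difference of -8.59 percentage points (exact two-sided permutation test, p = 0.3). With the libraries paired by replicate number, added after the data had been seen, the share was lower in Smc3 wt/- in 3 of 3 pairs (exact two-sided permutation within pairs, p = 0.25, the smallest that 3 pairs allow). None of these permutation tests could reach 0.05, so they do not decide whether the genotypes differ.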

How the data were processed

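The deposited values were whole UMI counts per gene and barcode, which the authors made from 10x 3′ libraries with Cell Ranger 3.0.2 (submitters' build mm10), without normalization. Barcodes with at least 500 genes and at most 10% mitochondrial UMIs were kept, and doublets were removed by Scrublet scores (scanpy 1.11.5) at 0.8% per 1000 barcodes. Kept cells were clustered in Seurat 5.3.0 (R 4.3.3; 2000 variable genes, reciprocal PCA, 30 components, resolution 0.5) without globin or immunoglobulin genes, and clusters were named from markers. High-haemoglobin barcodes were taken before filtering. UMIs were summed per library and class where every library had 20 cells, and tested with edgeR 4.0.16 (TMM, filterByExpr). DESeq2 1.42.0 was an alternative. The scripts' tests were tested on simulated data. For the high-haemoglobin comparison, a limit on false calls was set there for higher calls with TMM and not for lower calls with TMM. Members, lists and markers were chosen with earlier results of these data known. Named genes were the members, other globins, the 5 genes most like Hbb-bs and Hbb-bh1, and up to 10 rising and 5 falling genes of high-haemoglobin barcodes, some of which are not reported here.

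Same-numbered libraries deviated together in GC B-like cells (correlations 0.316, 0.130 and 0.246) and in naive or memory B-like cells (0.294, 0.173 and 0.109). The replicate number was taken as a pairing there, although libraries of different number were not compared and the labels name no pairs. In all kept, plasma-lineage and T cell-like cells not every correlation was over 0.1.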

Additional observations from a re-analysis of the deposited data

How the results depend on the processing

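Alternatives were DESeq2, its size factors, no low-count filter, a replicate block, globin or immunoglobulin genes left out, doublets kept, resolution 1, no integration, other globin thresholds and each library left out in turn, and with high-haemoglobin barcodes left out also the block or each library. The replicate block changed no genotype call, with 0 genes called in every class with and without it, and Hbb-bh1 in GC B-like cells at -0.61 (SE 0.15) with the block. Over all alternatives Hbb-bh1 stayed negative, at -0.75 to -0.30 in GC B-like cells (edgeR or DESeq2 adjusted p from 0.941) and -1.50 to -0.66 over all kept cells (from 0.626). Without the low-count filter 36 genes were called in naive or memory B-like, 4 in plasma-lineage and 9 in T cell-like cells. Leaving out libraries gave 0 to 1 in plasma-lineage cells, with 1 without Smc3 wt/- replicate 2. With high-haemoglobin barcodes left out, over all kept cells Hbb-bt turned to -0.076, and with the block to -0.0079, where Hbb-bs was -0.14. In GC B-like cells with the block Hbb-bs was -0.29. Leaving out libraries as well gave, over all kept cells, -0.79 to 2.64 for Hba-a1, -0.86 to 2.58 for Hba-a2, -0.94 to 2.33 for Hbb-bs and -0.34 to 0.22 for Hbb-bt (-0.059 without Smc3 wt/wt replicate 3, -0.20 and -0.097 without Smc3 wt/- replicates 2 and 3), and in GC B-like cells -0.67 to 1.67, -0.72 to 1.40, -0.91 to 1.12 and -0.21 to 0.39 (Hbb-bt at -0.12 without Smc3 wt/wt replicate 1). The genotype difference in Hbb-bh1 share over all deposited barcodes was 8.18 percentage points, and -19.8 to -2.79 with libraries left out. That in high-haemoglobin barcodes was -0.488 to 0.668. The high-haemoglobin comparison called 173 to 499 genes with libraries left out, and could not be run on kept cells alone. The cause of these changes was not tested. A count of 3 Hbb-bh1 UMIs in T cell-like cells limits any statement on its level there.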
